A study of Mus musculus with 9 samples.

Results

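Transcripts of 10 genes that write or erase histone methylation were followed in mouse 8-cell embryos in which MFN1 or histone H3.3 had been depleted. The 10 genes were chosen by symbol, namely the H3K4 methyltransferases *Kmt2a*, *Kmt2b*, *Kmt2c*, *Kmt2d* and *Setd1a* and the demethylases *Kdm1a*, *Kdm5a*, *Kdm5b*, *Kdm6b* and *Kdm4a*, and all 10 were found once among the 55335 entries of every library. Zygotes of ICR mice were injected with siRNA and cultured to the 8-cell stage, where RNA was read by Smart-Seq2, which primes cDNA with oligo-dT and amplifies it by PCR. Control embryos were given a nontargeting siRNA, MFN1-KD embryos an siRNA against *Mfn1*, which encodes a GTPase of the outer mitochondrial membrane, and H3.3-KD embryos siRNA against both *H3f3a* and *H3f3b*, the genes of the histone variant H3.3. All 3 groups were injected, and each was read in 3 libraries, each from a pool of embryos. A knockdown by injected siRNA acts on RNA already stored at injection and on RNA made later, and leaves protein that the zygote already held.

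Methylation of lysine 4 on histone H3 is written by the KMT2 and SET1 families, whose catalytic subunits work in complexes of the COMPASS type with the shared subunits WDR5, RBBP5, ASH2L and DPY30. SET1 complexes, built on SETD1A or SETD1B, and the KMT2B complex place trimethylation (H3K4me3) at active and CpG-rich promoters, whereas KMT2C and KMT2D place monomethylation at enhancers. The mark is erased by KDM1A, also called LSD1, which acts on the mono- and dimethylated forms within the CoREST complex, and by the KDM5 enzymes, which act on the di- and trimethylated forms. KDM4A removes methyl groups from H3K9 and H3K36, and KDM6B from H3K27. In the mouse, broad H3K4me3 domains inherited from the oocyte are removed around the activation of the embryonic genome, and KDM5 enzymes take part in that removal.

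The targeted genes were read first. *Mfn1* was at 51.57, 22.55 and 23.77 FPKM in control and at 9.54, 4.40 and 1.15 FPKM in MFN1-KD, with no overlap. FPKM scales fragments to gene length and to library size, but not to GC content or to uneven coverage along a transcript. Comparisons of level between genes are therefore rough. In H3.3-KD *H3f3a* fell from a control level of 1931.9 ± 293 (SD, n = 3) to 149 ± 28.3 FPKM and *H3f3b* from 2987.9 ± 154 to 246 ± 70.3 FPKM, so each knockdown lowered its target in all its libraries. Between 21643 and 22507 genes were above 0 FPKM in control, 23655 to 24820 in H3.3-KD and only 15577 to 20842 in MFN1-KD, with the fewest in its replicate 3. Pearson's r across genes between replicates was 0.949 to 0.962 in control, 0.919 to 0.945 in H3.3-KD and 0.876 to 0.917 in MFN1-KD, where genes are not independent replicates. MFN1-KD replicate 3 stood apart in this way, so values are given by library.

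The summed level of 10 genes of the 8-cell embryo and morula was 89.6 to 134 FPKM in control, 117 to 124 in MFN1-KD and 243 to 618 in H3.3-KD. The pluripotency factor *Pou5f1* was at 5.10 to 8.90 FPKM in control, 0.30 to 3.68 in MFN1-KD and 63.06 to 392.19 in H3.3-KD, where replicate 3 was the lowest. The trophectoderm regulators *Tead4* and *Tfap2c* were at 30.42 to 39.12 and 16.50 to 30.88 FPKM in control and, without overlap, at 79.09 to 89.91 and 54.29 to 62.70 in H3.3-KD. Over the genes tested below, 34.5% were higher in H3.3-KD than in control without overlap. *Nanog*, another pluripotency factor, was at 16.41 to 22.91 FPKM in control and overlapped with H3.3-KD, at 8.63 to 21.43. *Sox2* was at or below 0.10 FPKM in control and at 0.02 to 0.56 in H3.3-KD. Of the other genes in that list, *Gata3*, *Krt8*, *Krt18* and *Cdh1* overlapped between these groups. *Cdx2* was higher without overlap, at 0.57 to 6.24 FPKM in H3.3-KD against 0.06 to 0.09 in control. The 10 markers of cumulus and granulosa cells summed to 0.05 to 1.28 FPKM over all libraries, with *Inhba*, *Cyp11a1* and *Hsd3b1* listed at 0 in all 9, and the 6 sperm markers to at most 2.93. The 8 oocyte-stored genes summed to 64.6 to 76.1 FPKM in control, 32.2 to 66.3 in MFN1-KD and 40.5 to 66.8 in H3.3-KD. The 8 genes of the 2-cell stage summed to 6.63 to 18.9 FPKM in control, 18.5 to 77.3 in MFN1-KD and 10.9 to 116 in H3.3-KD. The part of these stage markers in the results given here was not tested, and in pools of whole embryos fewer cells with a transcript and less of it per cell cannot be told apart.

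In control embryos *Kdm5a* was the most abundant member, at 89.2 ± 9.97 FPKM (SD, n = 3). *Kdm5b* (28.0 ± 5.66), *Kdm1a* (26.8 ± 9.48) and *Kmt2c* (22.1 ± 6.32) followed, and the ranges of these neighbours overlapped. A clear step separated them from *Setd1a* (2.57 ± 0.890), *Kdm6b* (1.86 ± 0.295), *Kmt2b* (1.86 ± 0.880) and *Kdm4a* (1.26 ± 0.811), whose ranges again overlapped from neighbour to neighbour. *Kmt2d*, at 0.307 ± 0.359 FPKM, and *Kmt2a*, at 0.0367 ± 0.0306 FPKM, were close to 0, and their ranges overlapped. The longest transcripts of *Kmt2a*, *Kmt2c* and *Kmt2d* have 16470, 14967 and 19823 bases. How evenly such long transcripts were covered was not tested, so the order of levels is limited by it. In MFN1-KD the same 4 genes stood at the top, *Kdm5a* lay clear of the other three and the lowest of them, *Kmt2c*, clear of *Kmt2b*. In H3.3-KD *Setd1a* had moved up beside *Kmt2c*, with overlapping ranges, and *Kdm4a* lay alone between *Kmt2c* and *Kdm6b*.

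**Figure D1:**
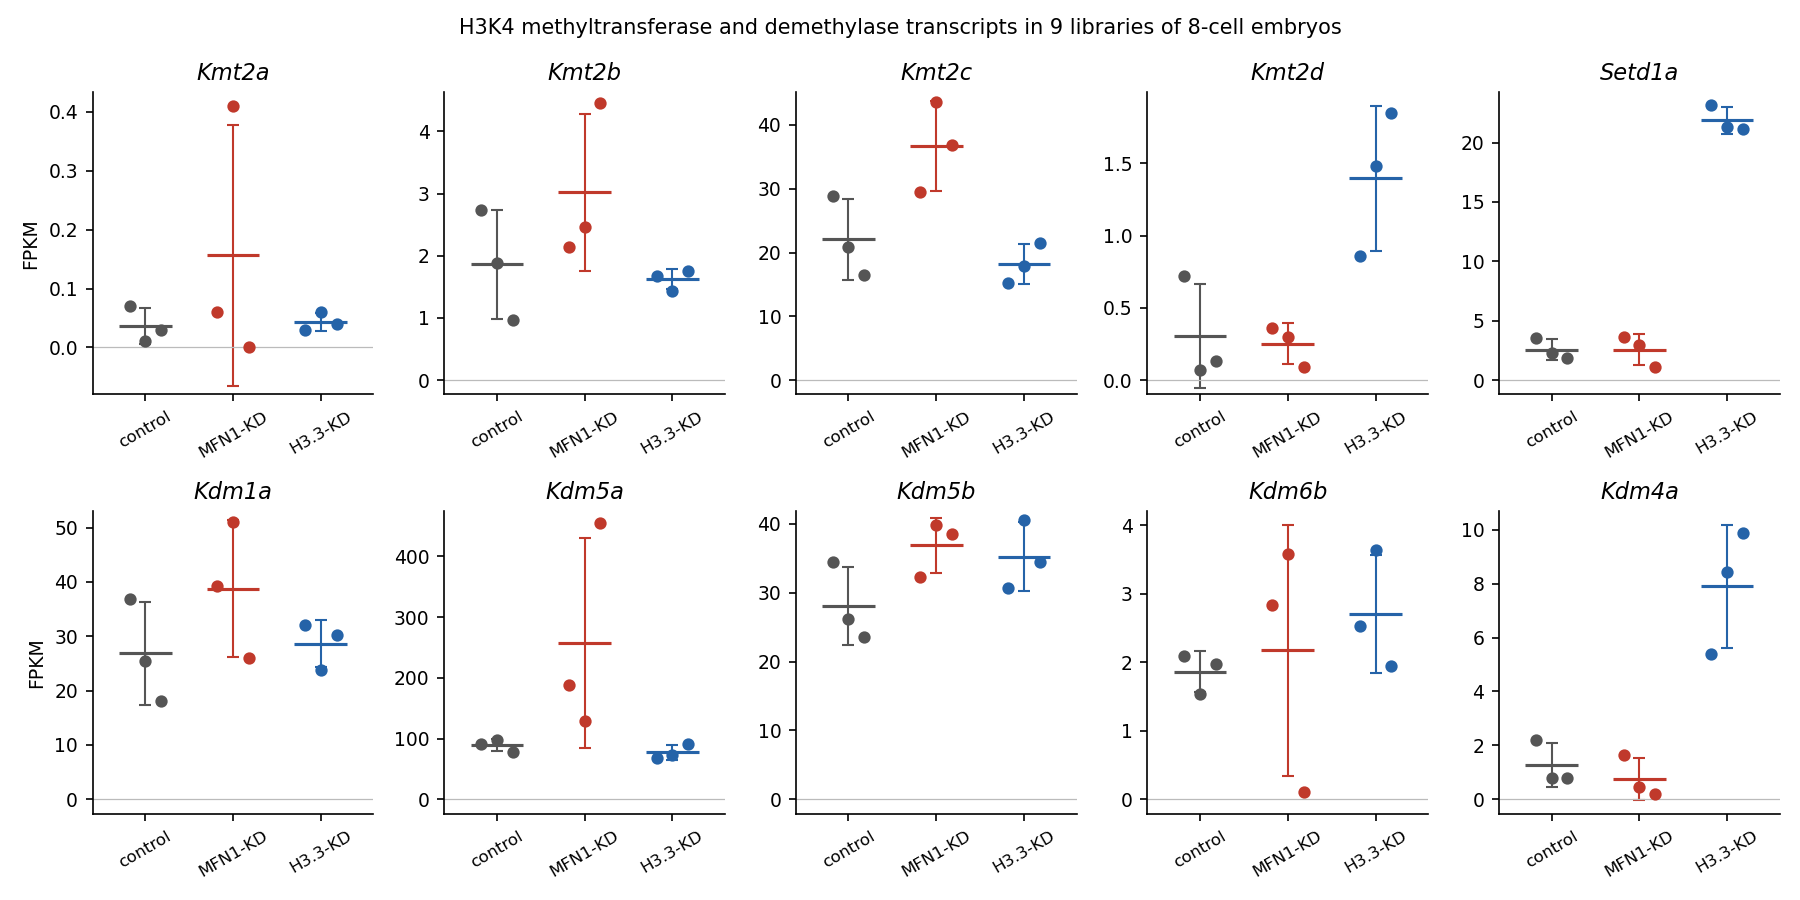
Level of each of the 10 genes in FPKM on linear axes with a scale of their own, with a point for each of the 9 libraries (replicates 1 to 3 from left to right in each group), a horizontal line at the group mean and bars of 1 SD. The 3 H3.3-KD libraries of *Setd1a* lie between 21.12 and 23.15 FPKM, above all other libraries, and the highest *Kdm5a* point, 454.57 FPKM, is MFN1-KD replicate 3.

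For the tests, log2(FPKM + 1) of all 9 libraries was fitted with limma for the 13011 genes whose mean reached 1 FPKM. *Kmt2a* (mean 0.0789 FPKM) and *Kmt2d* (0.651 FPKM) fell below that limit, so 8 of the 10 members were tested. The p-values were adjusted over all genes tested by the Benjamini-Hochberg method. They set a difference in group means against the spread between libraries within groups, pooled over all 3 groups. A second rule, more than 2-fold with an unadjusted p under 0.05, is the threshold used in the study. There it was applied to DESeq2 results and here to the limma fits, so genes passing it here are not the study's own calls. For one gene alone, 3 libraries against 3 cannot give a two-sided exact permutation p below 0.10, which is the value for every pair of groups without overlap.

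After H3.3 depletion 2 of the 8 members tested rose and 0 fell (adjusted p under 0.05), when 31.0% of all genes tested were called, 21.8% higher and 9.12% lower. They were *Setd1a*, the catalytic subunit of a SET1 complex, and *Kdm4a*, the demethylase of H3K9 and H3K36. The share of members called, 25.0%, was near that background. The same 2 passed the threshold used in the study, which 33.3% of all genes did, 23.9% higher and 9.39% lower. The median log2 fold change of the 8 members was 0.23, beside 0.26 for all genes, and after scaling each library by median ratios the same medians were -0.09 and 0.00.

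*Setd1a* (ENSMUSG00000042308.14) lies on chr7:127776670-127800122, forward strand, in GRCm38, the assembly also called mm10. Its level was 3.58, 2.25 and 1.89 FPKM in the control libraries, 3.60, 2.97 and 1.07 in MFN1-KD, and 23.15, 21.33 and 21.12 in H3.3-KD. All 3 H3.3-KD libraries stood far above the other 6, and control and MFN1-KD overlapped. The mean was 8.50-fold that of control in FPKM. On the log2(FPKM + 1) scale it rose by 2.71, with a standard error of 0.37 and a 95% interval of 1.89 to 3.52 (limma, adjusted p = 0.0006), which was the 353rd largest rise among the 13011 genes. Median-ratio scaling gave 2.40 and upper-quartile scaling 2.33, and over the alternatives in which it was tested the change was 1.71 to 3.09 with an adjusted p of 0.000139 to 0.00511. The 2 genes annotated as overlapping *Setd1a* were at no more than 0.297 FPKM on average in any group.

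*Kdm4a* (ENSMUSG00000033326.15) lies on chr4:118136957-118180043, reverse strand. Its level was 2.20, 0.79 and 0.80 FPKM in control, 1.64, 0.44 and 0.19 in MFN1-KD, and 5.40, 8.43 and 9.86 in H3.3-KD. The 3 H3.3-KD libraries lay above the other 6 without overlap, at 6.25-fold the control mean. The log2 change was 2.00, with a 95% interval of 1.07 to 2.92 (limma, standard error 0.42, adjusted p = 0.00532), with median-ratio scaling 1.73 and with upper-quartile scaling 1.67. Over the alternatives in which it was tested, the change was 1.18 to 2.66 and its adjusted p 0.00272 to 0.0461.

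The other 6 members tested did not pass in H3.3-KD, and their intervals give the sizes that remain possible. *Kmt2c*, the enhancer methyltransferase, was at 15.28, 17.82 and 21.52 FPKM against 28.91, 20.85 and 16.44 in control, and its log2 change of -0.24 had a 95% interval of -0.88 to 0.40. *Kmt2b*, the promoter methyltransferase, was at 1.44 to 1.75 FPKM, within its control range of 0.97 to 2.73, with a log2 change of -0.08 (95% interval -0.88 to 0.72). Among the H3K4 demethylases the log2 change was 0.14 for *Kdm1a* (-0.60 to 0.87), -0.21 for *Kdm5a* (-1.07 to 0.65) and 0.33 for *Kdm5b* (-0.22 to 0.87), and that of the H3K27 demethylase *Kdm6b* was 0.35 (-0.77 to 1.47). The groups overlapped for all 6. With the trend of each library over GC content and transcript length removed, *Kmt2b* had a change of -1.20 with an adjusted p of 0.0346.

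*Kmt2d*, an enhancer methyltransferase, was too low for the test but did not overlap between H3.3-KD, at 0.86, 1.48 and 1.85 FPKM, and control, at 0.72, 0.07 and 0.13 FPKM. Groups without overlap were found for 53.4% of all genes tested, 34.5% with H3.3-KD higher. With no filter on low values its log2 change was 0.89 with an adjusted p of 0.0784 from limma. *Kmt2a*, a methyltransferase known for *Hox* gene expression, was at or below 0.07 FPKM in 8 of the 9 libraries, at 0.41 in MFN1-KD replicate 2 and listed at 0 in MFN1-KD replicate 3. The depth of the libraries is unknown, so how small a difference could be seen at such levels cannot be given.

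**Figure D2:**
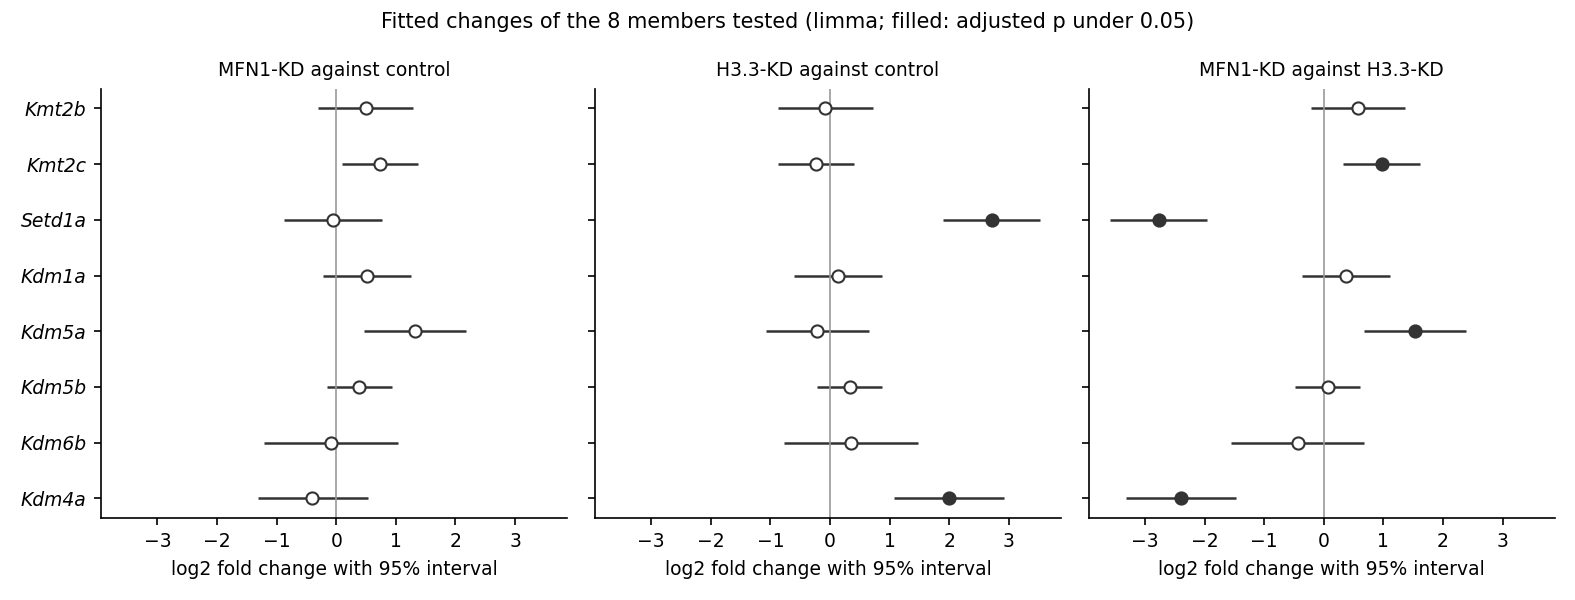
Log2 fold change of log2(FPKM + 1) from limma for the 8 members tested in the 3 comparisons, with bars for the 95% interval and filled points for an adjusted p under 0.05. Among the changes against control, *Setd1a* at 2.71 and *Kdm4a* at 2.00 in H3.3-KD are the filled points, and in the comparison of the knockdowns *Setd1a*, *Kdm4a*, *Kdm5a* and *Kmt2c* are filled.

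The make-up of the H3K4 methyltransferase transcripts differed in H3.3-KD. The summed FPKM of the 5 methyltransferases was 36.0, 25.1 and 19.5 in control, 35.7, 49.8 and 42.4 in MFN1-KD, and 41.0, 42.1 and 46.3 in H3.3-KD. In control *Kmt2c* gave 82.7% ± 2.15 of that sum and *Setd1a* 9.54% ± 0.501 (SD, n = 3). In H3.3-KD *Setd1a* gave 50.9% ± 5.46 and *Kmt2c* 42.0% ± 4.61, and in MFN1-KD *Setd1a* gave 6.19% ± 3.80 and *Kmt2c* 85.7% ± 2.67. The shares of *Setd1a* in H3.3-KD, 45.6% to 56.5%, lay above those of all other libraries, 2.52% to 10.1%. The sum over the 3 H3K4 demethylases *Kdm1a*, *Kdm5a* and *Kdm5b* was 333 ± 162 FPKM in MFN1-KD, against 144 ± 21.6 in control and 141 ± 12.5 in H3.3-KD. MFN1-KD replicate 3 alone had 519 FPKM, and replicates 1 and 2 had 260 and 220, still above the control range of 120 to 162. The ratio of methyltransferase to demethylase sums was 0.162 to 0.222 in control, 0.0818 to 0.227 in MFN1-KD and 0.299 to 0.312 in H3.3-KD. H3.3-KD thus lay above both other groups, which overlapped. This higher ratio rests mainly on *Setd1a*, which averaged 21.9 FPKM in H3.3-KD against 2.57 in control. *Kmt2c* and *Kmt2b* were lower on average, at 18.2 and 1.62 FPKM in H3.3-KD against 22.1 and 1.86 in control. *Kmt2d* and *Kmt2a* were higher but low, at 1.4 and 0.0433 FPKM against 0.307 and 0.0367. These sums join genes that were chosen by name and carry no test. Transcript sums do not measure the mark itself, and the paper reports a lower H3K4me3 signal in both knockdowns at this stage.

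**Figure D3:**
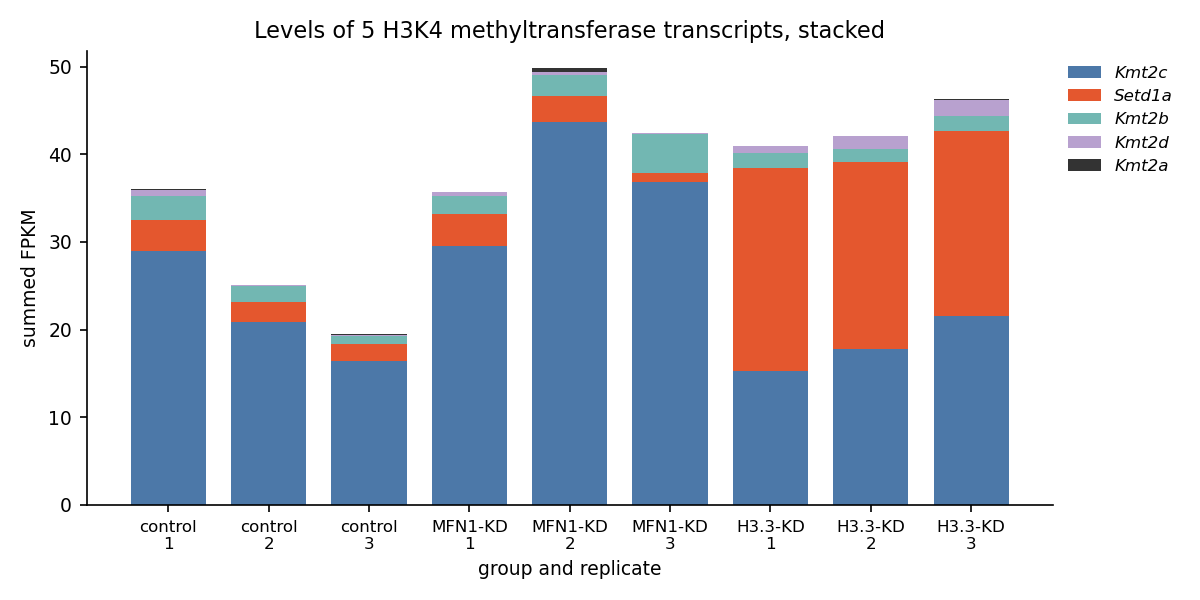
Stacked bars of the FPKM of the 5 H3K4 methyltransferases in each of the 9 libraries, on an axis from 0. *Kmt2c* makes up most of every control and MFN1-KD bar, and *Setd1a* makes up 45.6% to 56.5% of the H3.3-KD bars.

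The sequence just upstream of the start is shown for the members that rose and for *Kmt2c*, the most abundant methyltransferase in control, so that their base composition can be read beside the values. Whether changes went with the GC content of promoters was not tested. The 250 bases before the RefSeq start (GRCm38.p6), 5′ to 3′ on the strand of the gene, were at chr7:127777139-127777388, forward strand, for *Setd1a*, at chr4:118180044-118180293, reverse strand, for *Kdm4a*, and at chr5:25498784-25499033, reverse strand, for *Kmt2c*. Capitals mark GC boxes (GGGCGG or CCGCCC) and CCAAT boxes (CCAAT or ATTGG), each searched on both strands, and GC boxes that overlap run together.
Setd1a: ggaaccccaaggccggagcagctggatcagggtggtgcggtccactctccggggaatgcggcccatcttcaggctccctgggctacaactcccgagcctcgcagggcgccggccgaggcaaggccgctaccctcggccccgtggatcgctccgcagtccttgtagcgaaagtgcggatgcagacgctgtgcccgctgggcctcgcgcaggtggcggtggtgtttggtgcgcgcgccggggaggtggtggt
Kdm4a: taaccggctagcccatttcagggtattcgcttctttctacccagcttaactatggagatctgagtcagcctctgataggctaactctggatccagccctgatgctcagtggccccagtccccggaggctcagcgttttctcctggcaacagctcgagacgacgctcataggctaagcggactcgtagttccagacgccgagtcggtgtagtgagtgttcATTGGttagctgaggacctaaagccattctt
Kmt2c: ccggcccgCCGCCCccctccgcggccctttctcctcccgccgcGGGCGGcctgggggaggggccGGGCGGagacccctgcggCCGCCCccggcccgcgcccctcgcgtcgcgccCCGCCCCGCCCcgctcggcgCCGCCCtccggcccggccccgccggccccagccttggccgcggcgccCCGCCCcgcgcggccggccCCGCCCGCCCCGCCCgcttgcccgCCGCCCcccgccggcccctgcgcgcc
The *Setd1a* stretch was 70.4% GC with 25 CpG and neither motif, and lies within the gene as GENCODE draws it, whose start is further upstream. The *Kdm4a* stretch was 53.6% GC with 12 CpG, no GC box and 1 CCAAT box. The *Kmt2c* stretch was 91.6% GC with 48 CpG and 12 GC boxes. Over all 32851 RefSeq promoters of that length the median was 52.4% GC and 6 CpG, 32.7% held a GC box and 33.8% a CCAAT box. The members that rose had no box in common, and such matches describe the letters only. Of the 10 members 7 were in the RefSeq table, and of the 4 not printed *Kmt2a* held 29 CpG, *Kmt2d* 26, *Kdm1a* 21 and *Kdm5b* 13.

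Across all genes, changes in H3.3-KD went with GC content of the transcript, so each member was set beside genes of its own GC decile. In H3.3-KD the decile medians ran from a log2 fold change of -0.29 at the lowest GC content to 1.10 at the highest. In MFN1-KD they went the other way, with 0.24 in the lowest and -0.24 in the highest decile. *Setd1a*, with a transcript of 57.0% GC, was in decile 9, whose median in H3.3-KD was 0.85, and its change of 2.71 lay at percentile 95.7 of that decile. *Kdm4a*, at 53.6% GC, was in decile 8 with a median of 0.64 and lay at percentile 88.4. *Kmt2b* and *Kdm6b*, at 59.1% and 59.6% GC, were in the highest decile and lay at percentiles 19.9 and 29.1. With the GC and length trend removed, *Setd1a* had a log2 change of 1.71 (adjusted p = 0.00413 from limma) and *Kdm4a* of 1.18 (adjusted p = 0.0461).

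**Figure D4:**
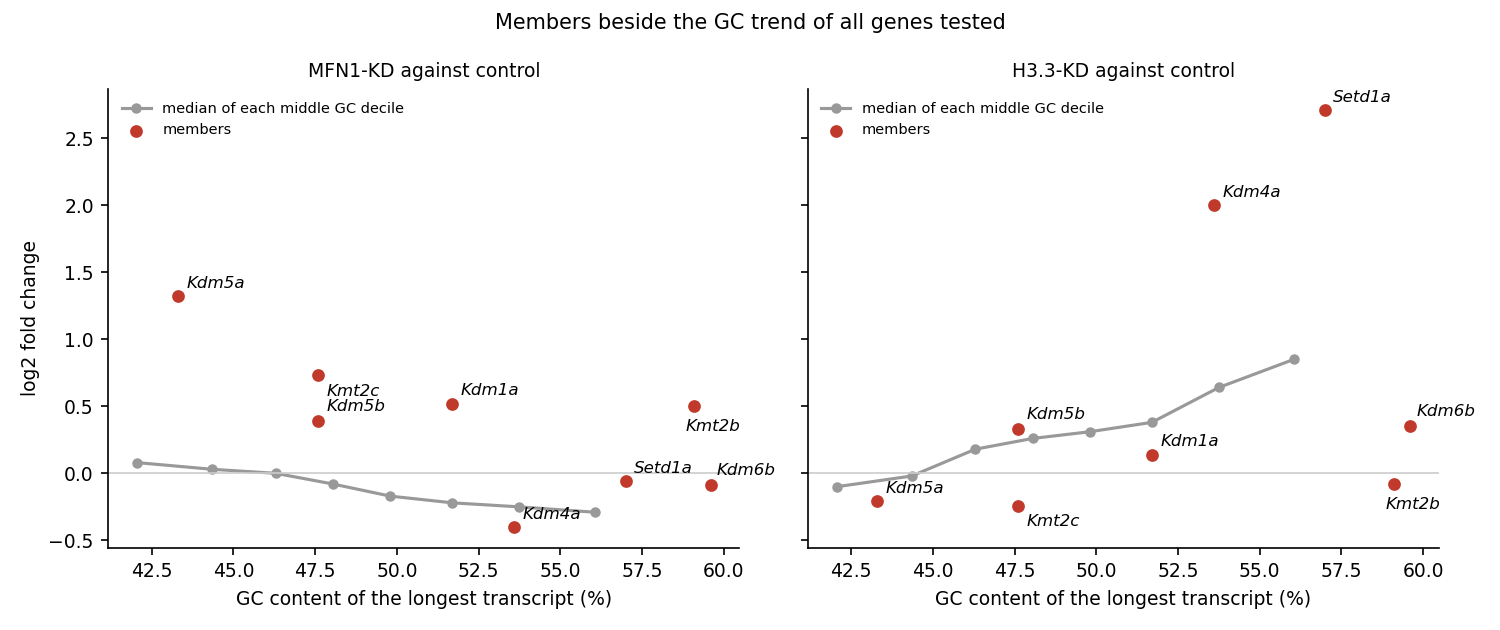
Log2 fold change of the 8 members tested (red points) against the GC content of their longest transcript in percent, with decile medians of all genes for the 8 middle GC deciles (grey line, placed at the middle of the decile). In H3.3-KD the grey line rises with GC from -0.10 to 0.85, and *Setd1a* and *Kdm4a* lie above it while *Kmt2b* and *Kdm6b*, in the highest decile, lie at -0.08 and 0.35.

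After MFN1 depletion 0 of the 8 members passed the adjusted threshold, when 3.35% of all genes tested were called. That background depended on the libraries fitted: over the alternatives it ran from 0 calls (without control replicate 2 or 3, or with only the 6 libraries compared) to 665 genes without MFN1-KD replicate 2, with 1 and 39 calls without H3.3-KD replicate 2 and 1, 59 without control replicate 1, and 11.1% of the 5933 genes at 10 FPKM or more. At an unadjusted p under 0.05 there were 2 members, *Kdm5a* and *Kmt2c*, a share of 25.0% beside 23.2% of all genes, and at the threshold used in the study there was 1, *Kdm5a*, when 14.1% of all genes passed it, 5.02% higher and 9.05% lower. The 8 members had a median log2 fold change of 0.44, beside -0.08 over all genes.

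*Kdm5a* (ENSMUSG00000030180.15; chr6:120364124-120444574, forward strand), a demethylase of di- and trimethylated H3K4, was at 90.72, 98.37 and 78.59 FPKM in control and at 188.12, 128.93 and 454.57 in MFN1-KD. All 3 MFN1-KD libraries were above all 3 controls, and replicate 3 was the farthest away. Groups did not overlap for 28.2% of all genes tested, with MFN1-KD higher for 11.4%. The log2 change was 1.32 (standard error 0.39, 95% interval 0.46 to 2.18, unadjusted p = 0.00652, adjusted p = 0.0862 from limma). Without MFN1-KD replicate 3 it was 0.80 with an adjusted p of 0.111, under 2-fold, and without MFN1-KD replicate 2 it was 1.71 with an adjusted p of 0.0365. With the GC and length trend removed it was 0.96 with an adjusted p of 0.257. *Ccdc77*, on the opposite strand and overlapping *Kdm5a*, was at 13.4 FPKM in control and 10.8 in MFN1-KD on average, and the strand setting of the counting is not given in the sources used here. Its part in the *Kdm5a* values was not tested.

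*Kmt2c* (ENSMUSG00000038056.15; chr5:25271798-25498783, reverse strand) was at 29.55, 43.67 and 36.81 FPKM in MFN1-KD, all above the control values of 28.91, 20.85 and 16.44, although the lowest of them and the highest control differed by little. Its log2 change was 0.73 (95% interval 0.09 to 1.37, adjusted p = 0.168 from limma). The remaining members overlapped between MFN1-KD and control. *Kdm1a*, at 39.32, 51.02 and 25.92 FPKM, had a log2 change of 0.52 (95% interval -0.22 to 1.26), *Kmt2b* of 0.50 (-0.30 to 1.29) and *Kdm5b* of 0.39 (-0.15 to 0.94). *Setd1a* had a change of -0.06 (-0.88 to 0.76) and *Kdm4a* of -0.40 (-1.32 to 0.53). *Kdm6b* was at 2.84, 3.58 and 0.10 FPKM in MFN1-KD, so replicate 3 lay below and the other libraries above the control range of 1.53 to 2.09, and its log2 change was -0.09 (-1.21 to 1.03), or 0.56 without replicate 3 (adjusted p = 0.382). Without that replicate *Setd1a* had a change of 0.29 and *Kdm1a* of 0.77 (adjusted p = 0.661 and 0.222). *Luzp1*, which overlaps *Kdm1a* on the opposite strand, averaged 13.6 FPKM in MFN1-KD, against 46.5 in control and 55.4 in H3.3-KD. Its part in the *Kdm1a* values was not tested.

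The knockdowns were then compared with each other. The difference itself takes no control values, but its p-values rest on a spread pooled over all 9 libraries. Of the 8 members 2 were higher in MFN1-KD and 2 were lower (adjusted p under 0.05), when 38.6% of all genes were called, 11.0% higher and 27.6% lower. At the threshold used in the study 3 members passed, without *Kmt2c*, when 40.1% of all genes did. *Setd1a* was lower in MFN1-KD by a log2 difference of -2.77 (limma, standard error 0.37, adjusted p = 0.00036) and *Kdm4a* by -2.39 (standard error 0.42, adjusted p = 0.00148). Neither call was lost under any alternative in which the gene was tested. The values of both did not overlap between the knockdowns, nor did those of *Kmt2d*, at 0.36, 0.30 and 0.09 FPKM in MFN1-KD, when 33.1% of all genes tested were lower in MFN1-KD without overlap. *Kdm5a* was higher in MFN1-KD by 1.53 (standard error 0.39, adjusted p = 0.0109), by 1.02 without MFN1-KD replicate 3 (adjusted p = 0.00928) and by 1.15 with the GC and length trend removed (adjusted p = 0.0821). *Kmt2c* was higher by 0.97 (standard error 0.29, adjusted p = 0.0226), and its adjusted p was 0.0544 with no filter, 0.065 without MFN1-KD replicate 2, and 0.0769 and 0.0625 without H3.3-KD replicate 1 and 2.

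*Kdm1a* and *Kmt2b* crossed the threshold in this comparison only under other settings. *Kdm1a* differed by 0.38 (95% interval -0.36 to 1.12), by 0.76 after median-ratio scaling (adjusted p = 0.0495), by 0.85 after upper-quartile scaling (adjusted p = 0.0414) and by 1.34 with the GC and length trend removed (adjusted p = 0.00474). *Kmt2b*, with 2.14, 2.46 and 4.46 FPKM in MFN1-KD against 1.68, 1.44 and 1.75 in H3.3-KD, differed by 0.57 (95% interval -0.22 to 1.37) and by 1.60 with that trend removed (adjusted p = 0.00877). *Kdm5b* differed by 0.07 (-0.48 to 0.61), and *Kdm6b* by -0.44 (-1.56 to 0.68). The median log2 difference was 0.22 over the 8 members and -0.39 over all genes, and 0.61 and -0.09 after median-ratio scaling.

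The wider machinery was read from 5 further lists with 69 genes, of which 61 were tested. In H3.3-KD 19 of the 61 rose and 0 fell, so the 31.1% called were all rises. Of all genes tested 31.0% were called, 21.8% higher and 9.12% lower. The median log2 fold change of the 61 was 0.52 beside 0.26 for all genes. After median-ratio scaling these medians were 0.21 and 0.00.

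Among the 12 partners of KDM1A in the CoREST complex that were tested, 6 rose in H3.3-KD and 0 fell, with a list median of 0.97. *Rcor2*, which encodes a CoREST scaffold protein, was at 1.67, 1.12 and 1.15 FPKM in control and at 34.09, 45.43 and 51.65 in H3.3-KD. It rose by 4.26 on the log2 scale (limma, standard error 0.37, adjusted p = 7.59e-05), the 50th largest rise of all genes tested, whereas its paralog *Rcor1* changed by 0.11 (adjusted p = 0.868). *Hmg20b*, a DNA-binding subunit of the complex, rose from 3.98 ± 1.32 to 29.9 ± 6.30 FPKM, by 2.64 on the log2 scale (adjusted p = 0.00274). The deacetylases *Hdac1* and *Hdac2* rose by 1.77 and 1.31 (adjusted p = 0.00041 and 0.00224), from 77.7 to 269 and from 40.5 to 101 FPKM on average. These 4 genes kept an adjusted p under 0.05 under every alternative in which they were tested, while *Kdm1a* itself did not pass in H3.3-KD.

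Of the 15 COMPASS and MLL complex partners tested, 3 rose and 0 fell in H3.3-KD, a share of 20.0% beside 21.8% of all genes higher and 9.12% lower. *Wdr5* and *Rbbp5*, subunits that all these complexes share, rose by 1.05 and 1.16 on the log2 scale (adjusted p = 0.00526 and 0.0192). *Bod1l*, whose product binds SETD1A, rose by 1.24 (adjusted p = 0.021). The other shared subunits *Ash2l* and *Dpy30* had changes of 0.14 and -0.72 (adjusted p = 0.76 and 0.06), and *Cxxc1* and *Wdr82*, which belong to SET1 complexes, of 0.79 and 0.86 (adjusted p = 0.283 and 0.0654). Of the 6 other methyltransferases tested 1 rose, a share of 16.7%, namely *Smyd2*, by 1.74 (adjusted p = 0.0223). *Setd1b*, the paralog of *Setd1a*, was at 0.727 FPKM in control and 1.62 in H3.3-KD, with a change of 0.62 (adjusted p = 0.184). The adjusted p of *Wdr5*, *Rbbp5*, *Bod1l* and *Smyd2* reached 0.291, 0.144, 0.0893 and 0.104 at most over the alternatives, and the change of *Wdr5* was 0.30 with the GC and length trend removed. The calls of *Rbbp5*, *Bod1l* and *Smyd2* were each lost without control replicate 2 or 3 and without H3.3-KD replicate 3, and those of *Bod1l* and *Smyd2* also without H3.3-KD replicate 1. All 3 were lost with upper-quartile scaling (adjusted p = 0.0866, 0.0893 and 0.0642 from limma). Median-ratio scaling removed the calls of *Rbbp5* and *Bod1l* (adjusted p = 0.0581 and 0.0692 from limma).

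In the list named other lysine demethylases 16 genes were tested. Of these, 5 rose and 0 fell in H3.3-KD, a share of 31.2% beside 21.8% of all genes higher and 9.12% lower. They were *Riox1* (1.82, adjusted p = 0.00841), *Kdm8* (1.41, adjusted p = 0.00963), *Kdm2b* (1.27, adjusted p = 0.0133), *Jmjd1c* (1.16, adjusted p = 0.029) and *Kdm4b* (1.21, adjusted p = 0.0345). *Kdm4b*, a paralog of *Kdm4a* that acts on H3K9, was at 1.34 ± 0.938 FPKM in control and 4.13 ± 0.490 in H3.3-KD, whereas *Kdm4c* was at 17.2 and 19.5 FPKM with a change of 0.17 (adjusted p = 0.692). *Kdm4b* averaged 0.547 FPKM in MFN1-KD, so it reached the mean of 1 FPKM with the help of H3.3-KD. The adjusted p of the first 4 of these 5 genes reached values from 0.104 to 0.573 over the alternatives. With the GC and length trend removed the change was 0.39 for *Riox1*, 0.53 for *Kdm8* and 0.56 for *Kdm2b*, none past the threshold. The call of *Kdm2b* was also lost without control replicate 3 or H3.3-KD replicate 2, and that of *Jmjd1c* without any one control library and without H3.3-KD replicate 1 or 3. Median-ratio and upper-quartile scaling also removed the call of *Jmjd1c* (adjusted p = 0.0586 and 0.0895 from limma). Of the 13 readers of H3K4 methylation 4 rose and 0 fell, a share of 30.8% beside the same background. *Phf13* and *Chd1*, a chromatin remodeller that binds H3K4me3, rose by 1.92 and 1.43 (adjusted p = 0.00251 and 0.00714) and kept the call under every alternative, and *Dido1* and *Ing2* rose by 1.22 and 1.63 (adjusted p = 0.0119 and 0.0181). The last 2 calls were lost with the GC and length trend removed and without control replicate 2 or 3, and that of *Ing2* also without H3.3-KD replicate 1 and with no filter, with adjusted p-values up to 0.068 and 0.0694.

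**Figure D5:**
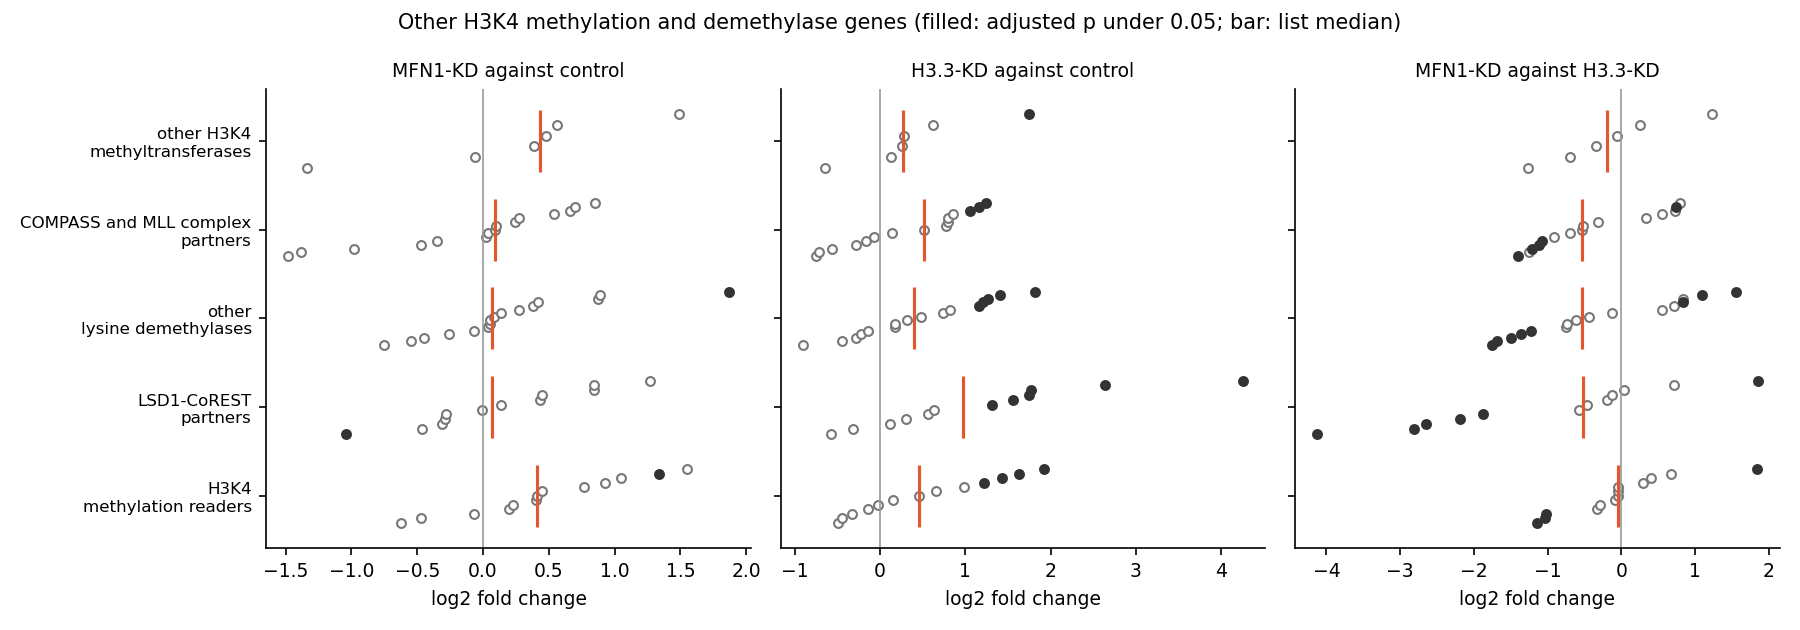
Log2 fold changes from limma of the 61 tested genes of 5 further lists in the 3 comparisons, with a point per gene (*Kdm6a* is in 2 lists), filled where the adjusted p is under 0.05, and a bar at each list's median. In H3.3-KD all 19 filled genes lie right of 0, with *Rcor2* at 4.26 farthest out, and in MFN1-KD only 3 genes are filled.

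In MFN1-KD 2 of these 61 genes rose and 1 fell, a share of 4.92% beside 3.35% of all genes. *Kdm2a*, an H3K36 demethylase, rose from 6.14, 6.02 and 4.56 FPKM in control to 16.86, 17.25 and 40.44 in MFN1-KD, by 1.87 on the log2 scale (adjusted p = 0.0419). *Bptf*, a remodelling factor subunit that reads H3K4me3, rose from 42.65, 34.68 and 27.65 to 87.72, 84.71 and 94.00 FPKM, by 1.34 (adjusted p = 0.0431). *Hdac1* fell from 84.31, 78.85 and 69.84 to 33.72, 34.04 and 44.92 FPKM, by 1.04 (adjusted p = 0.0404). The groups did not overlap for any of the 3 genes, but each call was lost under most of the 17 alternatives, with adjusted p-values up to 0.173, 0.178 and 0.18. The count of calls over the 61 genes was 0 without any one control library, 0 without the first or second H3.3-KD replicate and 1 without MFN1-KD replicate 1. With replicate 3 of MFN1-KD left out, *Kdm2a* had a change of 1.47 (adjusted p = 0.067) and *Bptf* of 1.30 (adjusted p = 0.0753), while *Hdac1* kept its call. The call of *Hdac1* was lost without MFN1-KD replicate 1 or 2 and with median-ratio scaling (adjusted p = 0.0574 from limma). With the GC and length trend removed its change was -0.65. *Kdm2a* and *Bptf* had log2 changes of 0.32 and -0.50 in H3.3-KD (adjusted p = 0.583 and 0.227), and *Hdac1* one of 1.77.

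Between the knockdowns 6 of the 61 genes were higher in MFN1-KD and 17 lower, a share of 37.7% beside 38.6% of all genes. *Bptf* was higher by 1.84 (adjusted p = 0.000964), and *Rcor2*, *Hdac1*, *Hmg20b* and *Gse1*, all partners of KDM1A, were lower by log2 differences of -4.13, -2.81, -2.65 and -2.19 (adjusted p = 4.89e-05, 3.2e-05, 0.00192 and 0.000953). Of the shared COMPASS subunits *Wdr5* was lower by -1.40, *Ash2l* by -1.12 and *Rbbp5* by -1.07 (adjusted p = 0.000825, 0.0127 and 0.0221). *Paxip1*, a subunit of the KMT2C and KMT2D complexes, was lower by -1.21 (adjusted p = 0.0436). *Bptf*, *Rcor2*, *Hdac1* and *Gse1* kept these calls under every alternative in which they were tested, and the others did not. *Gse1* averaged 0.18 FPKM in MFN1-KD, 0.637 in control and 4.38 in H3.3-KD. It reached the mean of 1 FPKM only through H3.3-KD, so that filter favoured the direction of its call. With the GC and length trend removed the difference was -0.45 for *Wdr5* (adjusted p = 0.107), -0.97 for *Hmg20b* (0.0917) and -0.60 for *Rbbp5* (0.155). The call of *Ash2l* was lost without H3.3-KD replicate 1 or 2, with an adjusted p of up to 0.0761 over the alternatives. That of *Rbbp5* was lost without H3.3-KD replicate 3, without MFN1-KD replicate 2 or 3, and with median-ratio or upper-quartile scaling. That of *Paxip1* was lost under 11 alternatives, with an adjusted p of up to 0.161.

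Each member was last set beside the 5933 genes whose mean reached 10 FPKM, to name the 2 with the most similar profile over the 9 libraries. Likeness was the root-mean-square difference of log2(FPKM + 1), each gene centred on its own mean, and it is a description of profiles. The closest to *Setd1a* were *Vps37b* (0.17) and *Ptbp1* (0.19), where the profile of *Setd1a* itself spread by 1.33 around its mean. The closest to *Kdm4a* were *Gnb2* (0.22) and *Glul* (0.24), around a spread of 1.12, and to *Kdm5a* *Xaf1* (0.14) and *Nmnat1* (0.20), around 0.81. *Kmt2c* was closest to *Kpna1* (0.14) and *Fam126b* (0.15), around a spread of 0.48, and *Kdm1a* to *Aftph* (0.08) and *Smc3* (0.15), around 0.41. For *Kdm5b* they were *Phf3* and *Caprin1* (both 0.12, around 0.25), for *Kmt2b* *Zzz3* (0.13) and *Epc2* (0.17, around 0.39) and for *Kdm6b* *Washc5* (0.13) and *Sf3b3* (0.20, around 0.59). *Kmt2d* (*Thap1* and *Dicer1*) and *Kmt2a* (*Dync1i2* and *Rbm39*) were too low for their profiles to say much.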

How the data were processed

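RNA was measured in 9 libraries of 8-cell embryos, 3 each of control, MFN1-KD and H3.3-KD, grouped by their titles. The labels give 5 to 10 embryos per group. According to the labels and methods, the authors made Smart-Seq2 libraries, trimmed reads with cutadapt 1.16 and used STAR for mapping to mm10. Per the file headers the values are FPKM, which the authors deposited with 2 decimals. The program that made them, its annotation and its strand setting are not given in the sources used here. Read counts were not used, so depth is unknown and no counting interval is given. FPKM are relative within a library, so a change in total RNA cannot be seen.

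Genes whose mean reached 1 FPKM were fitted as log2(FPKM + 1) with limma 3.58.1 (trend and robust options, R 4.3.3) over all 9 libraries, after the code was tested on simulated data. A fold change on this scale understates the change of low genes. Calls used a Benjamini-Hochberg adjusted p under 0.05, or more than 2-fold with an unadjusted p under 0.05. The 10 members and the 5 further lists were chosen with earlier results of these data known. The text names all members and targets, at most the 4 genes of smallest p per list and comparison, and 2 similar profiles per member. *Kdm4b* and *Gse1* in H3.3-KD, *Rcor1*, *Setd1b*, *Kdm4c*, *Dpy30*, *Cxxc1*, *Wdr82*, *Ash2l* in H3.3-KD and the marker genes were named after their values were seen. Positions and GC content came from GENCODE M21 and promoters from RefSeq. The 17 alternatives per comparison were other scalings, filters and pseudocount, only 6 libraries, a replicate block, removal of the GC and length trend (splines with 5 degrees of freedom) and each of 9 libraries left out. The libraries may differ technically or biologically, since no source says what separates the replicates.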

Additional observations from a re-analysis of the deposited data

How the results depend on the processing

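Of the members' values under the alternatives, 128 of 132 in MFN1-KD, 124 of 132 in H3.3-KD and 120 of 132 between the knockdowns kept their direction and their side of the threshold. With a mean of at least 10 FPKM, *Setd1a* and *Kdm4a* are not tested, so the calls among members fell from 2 to 0 in H3.3-KD by both rules, and between the knockdowns from 4 to 2 (adjusted) and from 3 to 1 (2-fold rule). That filter gave 7 adjusted calls in the other lists in MFN1-KD (3 as reported), 12 by the 2-fold rule in H3.3-KD (19) and 14 between the knockdowns (23). With the GC and length trend removed, the members' calls by the 2-fold rule were 0 in MFN1-KD (1) and 5 between the knockdowns (3), and the other lists had 1 adjusted call in MFN1-KD and, by the 2-fold rule, 12 in H3.3-KD and 15 between the knockdowns. The adjusted calls of the other lists in MFN1-KD were 0 with no filter, with only the 6 libraries compared and with the replicate block. With that block the adjusted calls over all genes in MFN1-KD fell from 436 to 31, and *Jmjd1c* lost its call in H3.3-KD (adjusted p = 0.0511 from limma), and no member changed its call. Same-numbered libraries of different groups correlated at -0.0526 to 0.158 in their deviations from group means. Differently numbered ones correlated at -0.116 to 0.072, so the highest correlation was of a same-numbered pair. The main fit treats same-numbered libraries as sharing only a number, and whether they share more was not settled by these values.

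Some directions turned. In H3.3-KD *Kdm1a* became -0.19 (median-ratio), -0.28 (upper-quartile) and -0.64 (GC and length trend removed), *Kdm5b* -0.09 (upper-quartile) and *Kdm6b* -0.84 (trend removed). Between the knockdowns *Kdm6b* became 0.70 and *Riox1* 0.07, both with the trend removed. The cause was not tested.

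Leaving out 1 library gave 0 to 1 calls among members in MFN1-KD by each rule, 2 to 2 in H3.3-KD by each rule, and 3 to 4 between the knockdowns by each rule. In the other lists it gave 0 to 3 adjusted and 8 to 12 2-fold calls in MFN1-KD, 11 to 24 and 17 to 21 in H3.3-KD, and 15 to 23 and 16 to 25 between the knockdowns. The log2 change in MFN1-KD ran from -0.29 to 0.29 for *Setd1a* and from -0.47 to 0.56 for *Kdm6b*. In H3.3-KD it ran from -0.32 to 0.14 for *Kmt2b*, positive without control replicate 1, and from -0.11 to 0.39 for *Kdm1a*, negative without control replicate 3. Between the knockdowns it ran from -0.03 to 0.17 for *Kdm5b* and from -0.82 to 0.21 for *Kdm6b*. With 1 library left out, its group has 2 and the spread is pooled over all groups.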
